A study of Mus musculus with 15 samples.

Results

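The CC chemokines that draw type 2 immune cells into tissue, and their receptors, were read in mouse skin RNA: the ligands Ccl11, Ccl24, Ccl17, Ccl22 and Ccl8, and the receptors Ccr3, Ccr4 and Ccr8. They were chosen by gene name from the deposited table, so they are 8 of 54532 genes, and all 8 were found. The skin came from mice labelled wild type or Trpv3-knockout, either not treated or given MC903 for 7 days. Each of these 4 groups held 3 libraries. MC903, or calcipotriol, a vitamin D analogue, inflames mouse skin and serves as a model of atopic dermatitis, and TRPV3 is a calcium-permeable channel of keratinocytes. The series speaks of conditional knockouts, but the labels do not say in which cells the gene was removed, name no vehicle for the untreated groups and give no strain, sex or age. Whether replicates are separate mice is not stated either. The p-values therefore measure the variation among replicate libraries, and this may be technical.

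CC chemokines are small secreted proteins that steer leukocytes through G protein-coupled receptors. CCL11 and CCL24 (eotaxins) act on CCR3, the receptor of eosinophils and basophils, and CCL17 and CCL22 act on CCR4, which skin-homing T cells, Th2 cells and regulatory T cells carry. Mouse CCL8 acts on CCR8, a receptor of skin Th2 and regulatory T cells, and dendritic cells and macrophages are known sources of CCL17, CCL22 and CCL8.

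The genes lie in clusters of mm10. Ccl11 (ENSMUSG00000020676, chr11:82057823-82062955) and Ccl8 (ENSMUSG00000009185, chr11:82115185-82116799) share a chemokine cluster on the plus strand with Ccl2, Ccl7 and Ccl12. Ccl22 (ENSMUSG00000031779, chr8:94745590-94751699) and Ccl17 (ENSMUSG00000031780, chr8:94810453-94812036) are neighbours on the plus strand of chromosome 8. Ccl24 (ENSMUSG00000004814) stands apart at chr5:135569937-135573049 on the minus strand. The receptors are spread along chromosome 9, with Ccr4 (ENSMUSG00000047898) at 114490316 to 114504916 on the minus strand, Ccr8 (ENSMUSG00000042262) at 120092114 to 120094906 and Ccr3 (ENSMUSG00000035448) at 124021972 to 124031689, both on the plus strand.

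Promoters of 6 of the 8 genes were found in the RefSeq table of build GRCm38.p6, and Ccl11 and Ccl24 were not matched. The 250 bases before each start were searched on both strands for TTCNNNGAA and for TTC and GAA set 4 bases apart, spellings of STAT sites of which the second is the spacing of STAT6. They were also searched for GGGA and TTTCC with 1 base between them, a spelling of NF-kappaB sites. Among 32851 mouse promoters of the same length 7.02% held the first, 5.85% the second, 12.4% either of them and 0.356% the third. Of the 6, Ccl17 held both STAT spellings, Ccr3 held the third on the minus strand, and no match was found for Ccl22, Ccl8, Ccr4 or Ccr8. The Ccr4 stretch searched, chr9:114496545-114496794, lies wholly inside the gene of the deposited table. Those of Ccl22 and Ccr8 reach into theirs. The sequences of Ccl17 and Ccl22 are shown because these neighbouring CCR4 ligands were the members that fell with MC903 in skin labelled knockout. That of Ccr3 is shown because the levels of this receptor did not overlap between the groups. Ccr3 reached the level needed for a test only in libraries labelled knockout, so its genotype calls add no support to this choice. Each sequence runs 5′ to 3′ on the plus strand, capitals mark the matches, and the Ccl22 stretch ends where the gene of the deposited table begins. The Ccl17 stretch is chr8:94810203-94810452, with TTCTCTGGAA at -154 to -145 and TTCTTTGAA at -99 to -91 from the start, which do not overlap. The Ccl22 stretch is chr8:94745434-94745589. The Ccr3 stretch is chr9:124021721-124021970, with GGAAATTCCC at -179 to -170.
Ccl17 promoter: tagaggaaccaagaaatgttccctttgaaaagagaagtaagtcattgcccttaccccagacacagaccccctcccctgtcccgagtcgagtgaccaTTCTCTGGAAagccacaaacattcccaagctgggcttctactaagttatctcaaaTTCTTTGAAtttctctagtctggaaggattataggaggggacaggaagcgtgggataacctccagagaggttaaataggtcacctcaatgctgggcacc
Ccl22 promoter: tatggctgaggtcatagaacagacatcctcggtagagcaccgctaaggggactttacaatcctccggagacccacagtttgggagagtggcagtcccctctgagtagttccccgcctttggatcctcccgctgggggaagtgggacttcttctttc
Ccr3 promoter: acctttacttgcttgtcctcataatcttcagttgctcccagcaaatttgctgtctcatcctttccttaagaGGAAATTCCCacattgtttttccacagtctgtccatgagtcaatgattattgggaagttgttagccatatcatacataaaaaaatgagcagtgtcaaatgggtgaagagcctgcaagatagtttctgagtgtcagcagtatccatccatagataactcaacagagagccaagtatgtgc
A match is a string of letters and does not show that a factor was bound.

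Reads assigned to genes numbered 16869716 to 18485698 per library. FPKM is the number of fragments normalised to gene length and library depth, and 1 read on a 1 kb gene was worth 0.0496 to 0.0615 FPKM. Trpv3 checks the labels: untreated, wild type skin gave an FPKM of 2.06, 2.71 and 1.13 and skin labelled knockout one of 3.17, 3.64 and 2.62, so its RNA was not lower there. After MC903 the values were 16.1, 17 and 19 against 6.82, 6.78 and 4.73. The genotype is therefore given as labelled throughout. All 10 keratinocyte markers listed were measured, so the libraries hold skin, and skeletal muscle was also present. The summed FPKM of 12 muscle markers was 2726 to 5273 in untreated and 1961 to 2643 in MC903 wild type skin, against 1963 to 2584 and 654 to 1021 in skin labelled knockout. The 10 keratinocyte markers summed to 2884 to 3855 untreated and 15550 to 24180 after MC903 in wild type, against 4997 to 5702 and 4671 to 6672 in skin labelled knockout. Of these 10, 9 were lower in skin labelled knockout after MC903, against 26.1% of all genes tested. All 10 had a more negative response there, against 19.7% of all genes tested. The part of these differences in the results below was not tested. In whole skin, fewer cells of a type and less RNA per cell cannot be told apart.

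All 8 genes passed the filter on low values (FPKM of at least 0.5 in at least 3 libraries), among 17646 genes tested. Ccr3 passed through 5 libraries, all labelled knockout, and Ccr8 through 7 libraries of 3 groups. With MC903, 2 of the 8 rose in wild type skin, Ccl8 and Ccl17, where 63.0% of all genes tested passed, 32.6% higher and 30.3% lower. In skin labelled knockout 6 of 8 passed, with Ccl8, Ccl11, Ccl24 and Ccr3 higher and Ccl17 and Ccl22 lower, where 47.9% of all genes passed, 25.0% higher and 23.0% lower. Between the untreated groups 3 were higher in skin labelled knockout, Ccl17, Ccl22 and Ccr3, where 11.7% of all genes passed, 7.15% higher and 4.55% lower. After MC903, 5 were higher in skin labelled knockout, Ccl8, Ccl11, Ccl24, Ccr3 and Ccr8, where 52.1% of all genes passed, 25.9% higher and 26.1% lower. The response to MC903 itself differed between the genotypes for 3 of 8, more positive for Ccl11 and more negative for Ccl17 and Ccl22, where 39.7% of all genes passed, 20.0% more positive and 19.7% more negative. With backgrounds of this size, the counts that involve MC903 are no result about these genes as a set. The untreated count is none either, since Ccr3 passed the filter through libraries labelled knockout alone and Ccl17 lost its call in 17 of 23 alternatives. The wild type count was 5 without untreated replicate 2 and 1 without untreated replicate 3 or MC903 replicate 2. The count between the MC903 groups was 3 without wild type replicate 1 or 2 or labelled knockout replicate 3. Over the 8 genes the median log2 fold changes of these comparisons, in the same order, were 0.39, 0.56, 0.64, 0.58 and 0.26, and over all genes tested 0.02, -0.00, 0.01, -0.03 and -0.01. Comparisons that have a group in common share its libraries, so that untreated skin labelled knockout enters both the untreated comparison and the response of that genotype.

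**Figure D1:**
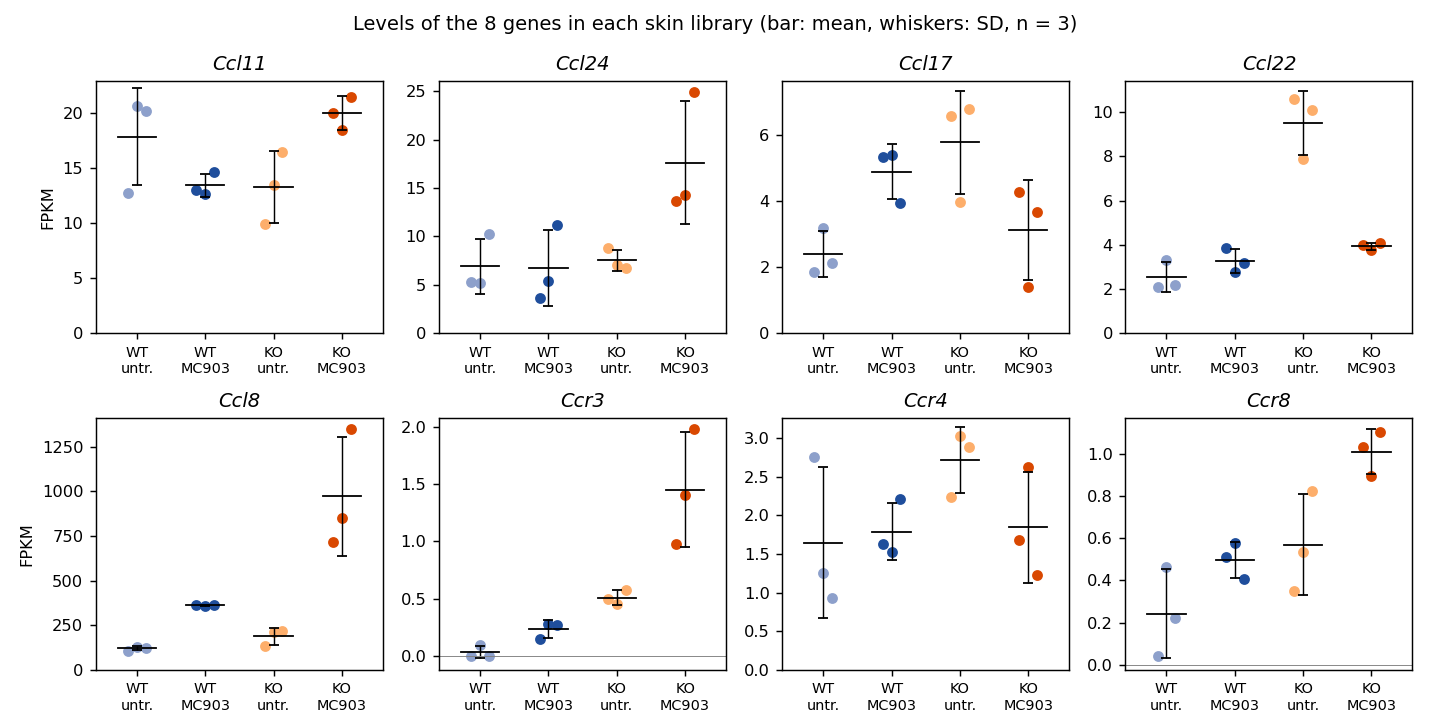
FPKM of the 8 genes in each of the 12 skin libraries, in panels by gene, with the mean and SD of the 3 libraries of each group (WT, wild type; KO, labelled knockout; untr., untreated). Ccl8 and Ccr3 separate all 4 groups, Ccl22 stands out in untreated skin labelled knockout, and most ranges of Ccr4 overlap.

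Among the CCR3 ligands, the eotaxins Ccl11 and Ccl24, the highest levels of Ccl24 were in MC903 skin labelled knockout. Ccl11, eotaxin-1, was at 12.7, 20.6 and 20.2 FPKM in untreated wild type skin and at 13, 12.6 and 14.6 after MC903 there. In the libraries labelled knockout it was 9.88, 13.4 and 16.4 untreated and 20, 18.5 and 21.5 after MC903. The MC903 groups did not overlap each other, nor did the untreated and MC903 groups labelled knockout, but the untreated wild type libraries spanned most of the range of the others. Ccl11 rose with MC903 in skin labelled knockout by a log2 fold change of 0.60 ± 0.20 (SE; limma adjusted p = 0.0261), on the scale of log2(FPKM + 0.5), which understates the change of low genes. The wild type change was -0.37 ± 0.20 (adjusted p = 0.121), and the test of the difference between these responses gave 0.97 ± 0.28 (adjusted p = 0.0174). After MC903 the level was higher in skin labelled knockout by 0.56 ± 0.20 (adjusted p = 0.0331), and untreated the difference was -0.41 ± 0.20 (adjusted p = 0.196).

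These Ccl11 calls are near the threshold. The rise in skin labelled knockout missed it without the filter, with TPM scaling, or without untreated replicate 1 or 2 or MC903 replicate 1 or 3 of that genotype, with adjusted p up to 0.11. The genotype difference after MC903 missed it without the filter or without any of 4 libraries (wild type MC903 replicates 1 and 2, labelled knockout MC903 replicates 1 and 3), with adjusted p up to 0.095. In wild type the fall passed with TPM scaling (-0.85, adjusted p = 0.0024), with scaling by total reads (-0.58, adjusted p = 0.022) and without untreated replicate 1 (-0.59, adjusted p = 0.013). Without that library the untreated genotype difference also passed, at -0.63 (adjusted p = 0.047).

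Ccl24, eotaxin-2, is made by macrophages among other cells. Its FPKM was 5.28, 5.17 and 10.2 in untreated and 3.65, 5.41 and 11.1 in MC903 wild type skin. Skin labelled knockout had 8.77, 7.08 and 6.67 untreated and 13.7, 14.3 and 24.9 after MC903. All 3 of the last group were above the other 9 libraries, which overlapped. Ccl24 rose with MC903 in skin labelled knockout by 1.13 ± 0.37 (adjusted p = 0.0259), against -0.10 ± 0.37 (adjusted p = 0.832) in wild type. The MC903 groups differed by 1.41 ± 0.37 (adjusted p = 0.00812), while the untreated groups differed by 0.17 ± 0.37 (adjusted p = 0.8). The difference between the responses, 1.23 ± 0.52 (95% interval 0.08 to 2.38), did not pass at an adjusted p of 0.0827. It passed with TPM scaling (adjusted p = 0.03) and without wild type MC903 replicate 3, the highest of its group (1.64, adjusted p = 0.015). The rise in skin labelled knockout missed the threshold without the filter or without untreated replicate 2 or 3 or MC903 replicate 3 of that genotype, with adjusted p up to 0.1.

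The CCR4 ligands Ccl17 and Ccl22 were both highest in untreated skin labelled knockout and lower after MC903 there. Ccl22, a product of macrophages and dendritic cells, was at 2.1, 3.33 and 2.18 FPKM in untreated wild type skin and at 3.86, 2.78 and 3.15 after MC903. In the libraries labelled knockout it was 10.6, 7.87 and 10.1 untreated and 3.98, 3.76 and 4.07 after MC903. The 3 untreated libraries labelled knockout stood above all others, and the MC903 groups overlapped. Untreated, Ccl22 was higher in skin labelled knockout by 1.73 ± 0.16 (adjusted p = 0.000512), a ratio of mean FPKM of 3.75. With MC903 it fell by 1.16 on the log2 scale in that genotype (SE 0.16, adjusted p = 0.000202), and the wild type change was 0.32 ± 0.16 (adjusted p = 0.108). The responses differed by -1.49 ± 0.23 (adjusted p = 0.000706). After MC903 the genotype difference was 0.25 ± 0.16 (95% interval -0.11 to 0.61, adjusted p = 0.23). These 3 calls of Ccl22 passed under each of the alternatives run, those that leave out a library included. The wild type change also passed without untreated replicate 2 (0.50, adjusted p = 0.012), and the MC903 genotype difference with TPM scaling (0.55, adjusted p = 0.028).

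Ccl17, made by dendritic cells, was at 1.86, 3.18 and 2.14 FPKM in untreated wild type skin and at 5.35, 5.38 and 3.94 after MC903. The libraries labelled knockout had 6.57, 3.98 and 6.79 untreated and 4.29, 1.4 and 3.68 after MC903. The wild type groups did not overlap, the groups labelled knockout did, and replicate 2 of the latter was the lowest of its group in both conditions. Behind these values stood 13 to 66 reads per library. Ccl17 rose with MC903 in wild type skin by 0.91 ± 0.33 (adjusted p = 0.029) and fell in skin labelled knockout by 0.87 (SE 0.33, adjusted p = 0.0466). The responses differed by -1.78 ± 0.46 (adjusted p = 0.0107), a call that passed under each alternative run. Untreated, Ccl17 was higher in skin labelled knockout by 1.11 ± 0.33 (adjusted p = 0.0495), and after MC903 the difference was -0.67 ± 0.33 (adjusted p = 0.106).

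The single Ccl17 comparisons are less firm than the difference between the responses. The untreated genotype difference missed the threshold in 17 of 23 alternatives, with adjusted p up to 0.15. The fall in skin labelled knockout missed it in 12 of 23, with adjusted p up to 0.17, and was -0.46 without MC903 replicate 2. After MC903 the genotype difference ranged from -0.92 to -0.26 when single libraries were left out, and it passed without labelled knockout MC903 replicate 1 (adjusted p = 0.045). The wild type rise missed the threshold in 7, among them TPM scaling (0.54, adjusted p = 0.22) and scaling by total reads (0.73, adjusted p = 0.076).

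**Figure D2:**
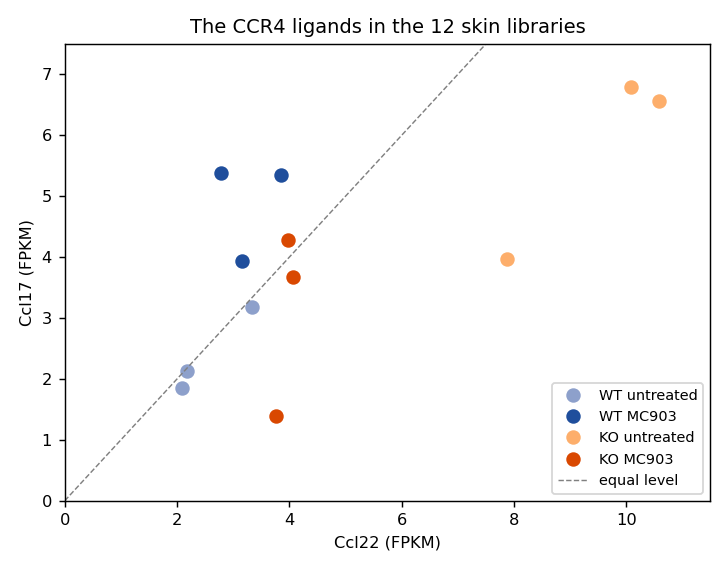
FPKM of Ccl17 (vertical axis) against FPKM of Ccl22 (horizontal axis) in the 12 skin libraries, coloured by group, with a dashed line where both are equal. The wild type MC903 libraries lie above the line at a Ccl17 to Ccl22 ratio of 1.25 to 1.94, and the untreated libraries labelled knockout lie below it at 0.506 to 0.673.

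The balance of the CCR4 ligands differed between groups accordingly. The ratio of Ccl17 to Ccl22 FPKM was 0.886, 0.957 and 0.979 in untreated wild type skin, and 1.39, 1.94 and 1.25 after MC903. In skin labelled knockout it was 0.621, 0.506 and 0.673 untreated, and 1.08, 0.372 and 0.905 after MC903. The wild type groups and the untreated group labelled knockout did not overlap one another, and the MC903 group labelled knockout overlapped both untreated groups.

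Ccl8, the mouse CCR8 ligand, was the most abundant of the 5 ligands in every library, at 1094 to 12775 reads. Its FPKM was 108, 129 and 122 in untreated wild type skin and 363, 359 and 364 after MC903. In the libraries labelled knockout it was 133, 211 and 219 untreated and 715, 852 and 1351 after MC903. No group overlapped another, in the order MC903 labelled knockout, MC903 wild type, untreated labelled knockout, untreated wild type. Ccl8 rose with MC903 by 1.60 ± 0.23 (adjusted p = 0.000112) in wild type and by 2.35 ± 0.23 (adjusted p = 1.87e-05) in skin labelled knockout, ratios of mean FPKM of 3.03 and 5.18. After MC903 it was higher in skin labelled knockout by 1.37 ± 0.23 (adjusted p = 0.000581). These calls passed under each alternative run. The untreated genotype difference of 0.62 ± 0.23 did not pass (adjusted p = 0.11), nor did the difference between the responses of 0.75 ± 0.33 (95% interval 0.03 to 1.47, adjusted p = 0.0909). The difference between the responses passed with TPM scaling (1.04, adjusted p = 0.025), with scaling by total reads (0.90, adjusted p = 0.049) and without MC903 replicate 1 of the skin labelled knockout (0.95, adjusted p = 0.041). Library weights brought the untreated difference past the threshold (0.71, adjusted p = 0.014).

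Since FPKM is per length, the ligands can be set beside each other. Ccl8 made up 77.9% to 83.1% of the summed FPKM of the 5 ligands in untreated wild type skin and 91.7% to 93.4% after MC903. In skin labelled knockout its share was 78.8% to 86.7% untreated and 94.5% to 96.1% after MC903. Ccl11 held 9.82% to 12.9% in untreated wild type skin and 1.53% to 2.64% in MC903 skin labelled knockout, where its own FPKM was highest on average. Ccl17 and Ccl22 together stood under Ccl8 in every library.

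**Figure D3:**
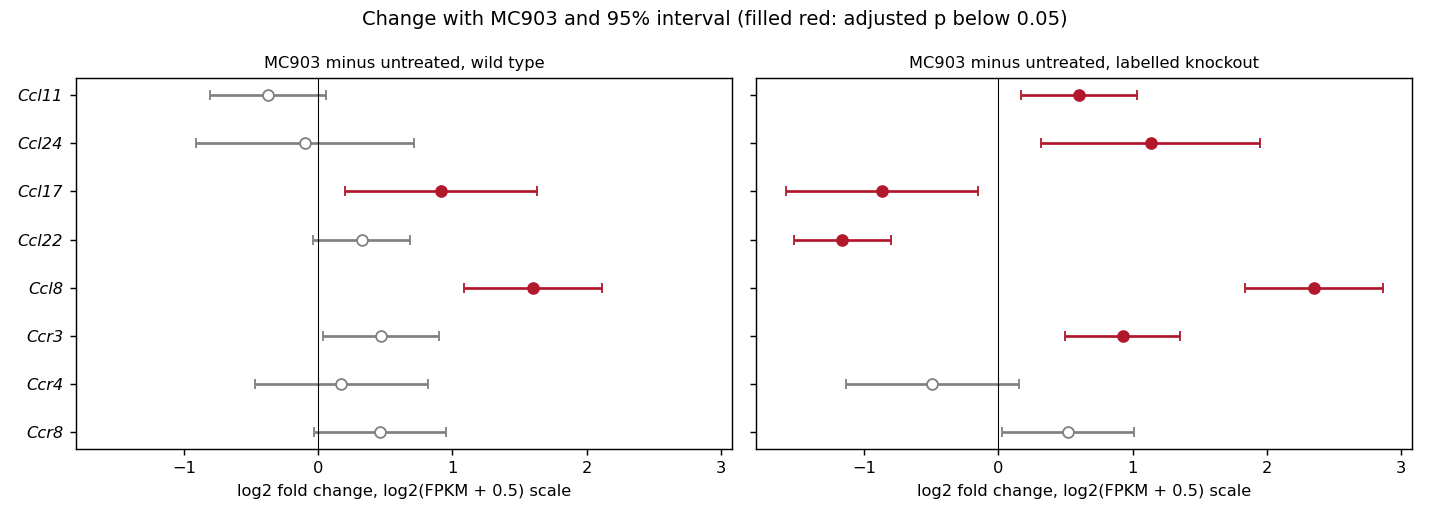
Log2 fold change with MC903 (horizontal axis, log2(FPKM + 0.5) scale) of the 8 genes, in wild type skin on the left and in skin labelled knockout on the right, with 95% intervals and filled points where the limma adjusted p was below 0.05. Ccl8 rose in both panels, and Ccl17 lies at 0.91 on the left and at -0.87 on the right.

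The receptors were far less abundant than Ccl8. Ccr3, the eotaxin receptor, was at 0, 0.0909 and 0 FPKM in untreated wild type skin, which are 0, 6 and 0 reads. After MC903 wild type skin had 0.146, 0.282 and 0.273, from 8, 15 and 15 reads. Skin labelled knockout had 0.5005, 0.449 and 0.574 untreated, from 32, 28 and 35 reads, and 0.977, 1.4 and 1.98 after MC903, from 58, 83 and 120 reads. No group overlapped another. Ccr3 was higher in skin labelled knockout by 0.93 ± 0.19 untreated (adjusted p = 0.0137) and by 1.39 ± 0.19 after MC903 (adjusted p = 0.000165), and it rose with MC903 there by 0.93 ± 0.19 (adjusted p = 0.00253). These calls passed under each alternative run in which the gene was tested. The libraries that admitted Ccr3 to the main fit were all labelled knockout, however. Its genotype calls thus concern a gene selected through the group where it was high, and they add no support beyond the levels. The wild type change of 0.47 ± 0.19 missed the threshold (adjusted p = 0.0552) and passed in 8 of the alternatives. The difference between the responses was 0.46 ± 0.28 (adjusted p = 0.209), and its sign depended on the scale, at -0.09 with a pseudocount of 0.1 and -2.21 in a fit of the recovered reads. No filter-passing level of Ccr3 was reached in wild type skin, so its fold changes rest on few reads there.

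Ccr4, the receptor of Ccl17 and Ccl22, was at 2.76, 1.25 and 0.93 FPKM in untreated wild type skin and at 1.62, 1.53 and 2.21 after MC903. Skin labelled knockout had 2.23, 3.03 and 2.88 untreated and 1.68, 2.63 and 1.22 after MC903. Untreated skin labelled knockout lay just above MC903 wild type skin, every other pair of groups overlapped, and Ccr4 passed in none of the 5 comparisons with limma, with 1 unadjusted p under 0.05. Its largest estimate was the untreated genotype difference of 0.67 ± 0.29 (95% interval 0.02 to 1.31, adjusted p = 0.164). The MC903 groups differed by 0.00 ± 0.29 (95% interval -0.65 to 0.65). In wild type the response of 0.17 ± 0.29 (adjusted p = 0.627) became -0.21 with TPM scaling. Without untreated wild type replicate 1, the highest of its group, the untreated difference was 1.01 (adjusted p = 0.03) and the difference between the responses -1.01 (adjusted p = 0.034). The means of Ccr4 and Ccl22 were both highest in untreated skin labelled knockout, but the Ccr4 range there overlapped those of untreated wild type and of MC903 skin labelled knockout.

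Ccr8, the receptor of Ccl8, had 1, 11 and 5 reads in untreated wild type skin, for an FPKM of 0.0428, 0.464 and 0.223, and an FPKM of 0.509, 0.576 and 0.406 after MC903. In skin labelled knockout the FPKM was 0.348, 0.535 and 0.822 untreated and 1.03, 0.895 and 1.1 after MC903. The last group was above all other libraries, which overlapped. Ccr8 was higher in skin labelled knockout after MC903 by 0.60 ± 0.22 (adjusted p = 0.0413), a call lost in 11 of 22 alternatives with adjusted p up to 0.11. The responses to MC903 of 0.46 ± 0.22 in wild type (adjusted p = 0.093) and 0.52 ± 0.22 in skin labelled knockout (adjusted p = 0.0752) did not pass, and their difference was 0.06 ± 0.32 (95% interval -0.63 to 0.75). The wild type response passed without untreated replicate 2 (0.67, adjusted p = 0.02) and that of skin labelled knockout without its untreated replicate 3 (0.69, adjusted p = 0.04) or without wild type untreated replicate 1 or 2. At 24 reads or fewer per library a change of this size was not resolved.

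**Figure D4:**
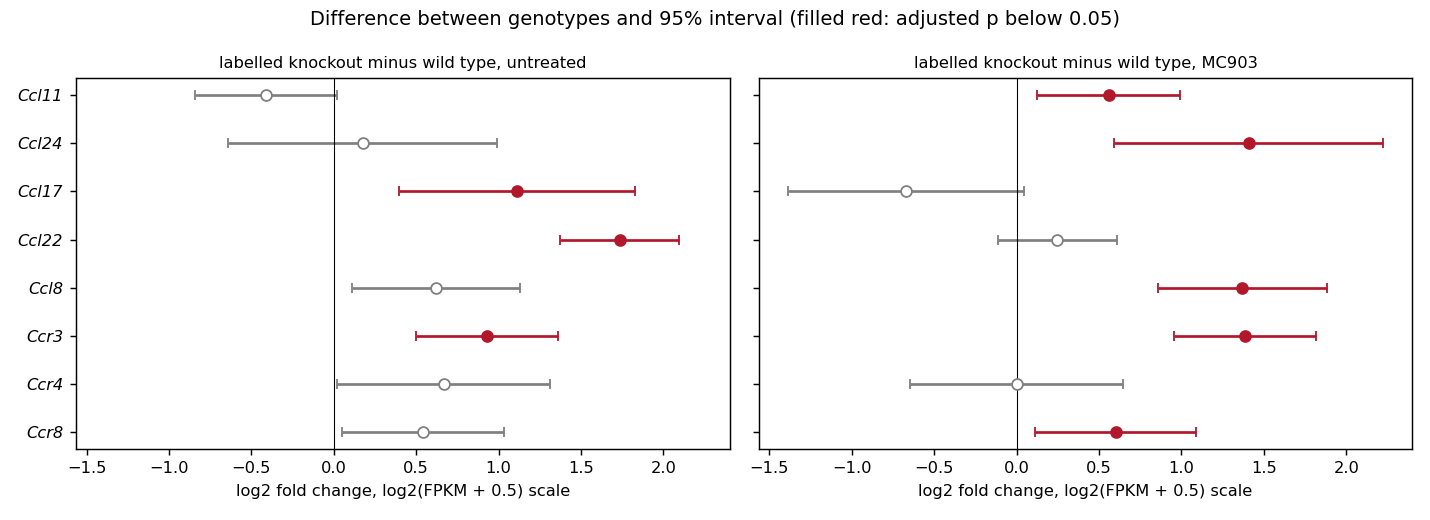
Log2 fold change of skin labelled knockout against wild type (horizontal axis, log2(FPKM + 0.5) scale) of the 8 genes, untreated on the left and after MC903 on the right, with 95% intervals and filled points where the limma adjusted p was below 0.05. Ccl22 leads the left panel at 1.73, and Ccl24, Ccr3 and Ccl8 lie between 1.37 and 1.41 on the right.

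The scaling between libraries bears on all of these values. With TPM the median change of all genes moved by -0.43 in the wild type response, -0.18 in the response of skin labelled knockout, 0.27 in the MC903 genotype comparison and 0.26 in the difference of responses. Among passing genes the share that was higher went from 51.8% to 26.7%, from 52.1% to 33.5%, from 49.8% to 73.7% and from 50.3% to 72.2% in these comparisons. Scaling by total reads moved the wild type median by -0.17 and that of the difference by 0.12, with shares of 40.0% and 61.9%, and the untreated genotype share went from 61.1% to 49.7%. Among the members, TPM turned the wild type change of Ccl22 to -0.09, without a call.

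Other ligands and decoy receptors of this system were read from a list of 9 genes, of which 7 were tested. In wild type 1 of the 7 rose with MC903, Ccl7, and 3 fell, Ackr2, Ackr4 and Ccl28. In skin labelled knockout 2 rose, Ccl7 and Ccrl2, and Ackr4 and Ccl28 fell. Over all genes tested 32.6% rose and 30.3% fell in wild type, and 25.0% rose and 23.0% fell in skin labelled knockout. Between the MC903 groups 25.9% of all genes tested were higher in skin labelled knockout, and 4 of the 7 were. These were Ccl7, a ligand of CCR3 among other receptors, at 1.47 ± 0.22 (adjusted p = 0.00022), Ccrl2 at 1.51 ± 0.28 (adjusted p = 0.00103), Ackr2, a scavenger of inflammatory CC chemokines, at 0.81 ± 0.17 (adjusted p = 0.00199), and Ackr1 at 0.53 ± 0.15 (adjusted p = 0.0103). In the untreated comparison the lowest adjusted p among the 7 was 0.3, that of Ccl7. Ccl1, another CCR8 ligand, had 0 to 10 reads per library, Ccl26 had 0 or 1, and neither was tested.

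Ccl2, Ccl7 and Ccl12, the cluster partners of Ccl8 and Ccl11 on chromosome 11, rose with MC903 in both genotypes, as Ccl8 did. Ccl11 was called higher with MC903 in skin labelled knockout only. Ccl12 went from a FPKM of 3.09, 2.68 and 2.43 to 10.3, 11.2 and 12 with MC903 in wild type and from 5.05, 3.71 and 2.5 to 69.7, 65 and 63.3 in skin labelled knockout. The responses differed by 2.15 ± 0.25 for Ccl12 (adjusted p = 0.000154), 1.10 ± 0.30 for Ccl7 (adjusted p = 0.0147) and 0.78 ± 0.27 for Ccl2 (adjusted p = 0.0398). These 3 and Ccl11 passed this test with a more positive response in skin labelled knockout, as did 20.0% of all genes tested. Ccl8 of the same cluster did not pass it, with an estimate close to that of Ccl2 (0.75 ± 0.33, adjusted p = 0.0909). Cx3cl1, the neighbour of Ccl17 and Ccl22 on chromosome 8, fell with MC903 in both genotypes, by 0.84 (SE 0.16, adjusted p = 0.000895) and by 0.72 (SE 0.16, adjusted p = 0.00376). Its untreated genotype difference was 0.06 ± 0.16 (adjusted p = 0.851), against 1.73 for Ccl22.

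Type 2 cytokines such as IL-4 and IL-13 are known to induce these chemokines. They, the epithelial alarmins and the receptors of both were read from a list of 16, of which 12 were tested. With MC903, 8 rose and 1 fell in wild type, and 10 rose and 1 fell in skin labelled knockout, with Tslp, Il4ra and Il33 among the lowest adjusted p in both. The shares of all genes tested that rose and fell were 32.6% and 30.3% in wild type and 25.0% and 23.0% in skin labelled knockout. Tslp, a keratinocyte alarmin, was at 1.86, 1.71 and 0.969 FPKM in untreated and 224, 223 and 549 in MC903 wild type skin, against 1.31, 1.9 and 1.94, then 387, 487 and 291, in skin labelled knockout. Il33 was 12.6, 19.7 and 10.5, then 90.7, 88.6 and 77.9, in wild type, and 8.67, 7.99 and 8.82, then 54.6, 71.7 and 66.8, in skin labelled knockout. Untreated, Il33 was lower in skin labelled knockout by -0.67 ± 0.19 (adjusted p = 0.0409) and Il2rg higher by 0.74 ± 0.19 (adjusted p = 0.0326), and these were the genes of the list that passed there. Il4 was 2.5, 1.37 and 1.45, then 2.24, 2.76 and 2.72, in wild type and 1.13, 1.5 and 1.23, then 2.56, 2.53 and 4.01, in skin labelled knockout. Its rise passed in the latter (0.97 ± 0.20, adjusted p = 0.00245), and the wild type change was 0.46 ± 0.20 (adjusted p = 0.0654), with a difference of 0.50 ± 0.29 (adjusted p = 0.185). Il13 was 0.0834, 0.247 and 0, then 0.546, 0.357 and 0.741, in wild type and 0.17, 0.522 and 0.356, then 0.732, 0.827 and 0.359, in skin labelled knockout. Il5 had 0 to 11 reads per library and was not tested. Between the MC903 groups the adjusted p of Il4, Il13, Il33 and Tslp was 0.484, 0.73, 0.0823 and 0.425.

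STAT6, the factor that IL-4 and IL-13 switch on, and genes of its signalling and of type 2 responses were read from a list of 15, of which 14 were tested. In wild type 11 rose and 1 fell with MC903, against 32.6% and 30.3% of all genes tested. In skin labelled knockout 9 rose and 2 fell, against 25.0% and 23.0%. Between the MC903 groups 4 were higher in skin labelled knockout, led by Alox15 (2.81 ± 0.17, adjusted p = 1.79e-06) and Mrc1 (2.29 ± 0.15, adjusted p = 2.5e-06), and 4 lower, led by Chil4 (-4.09 ± 0.28, adjusted p = 2.68e-06) and Gata3 (-1.70 ± 0.19, adjusted p = 3.92e-05). Both counts were near the shares over all genes tested, 25.9% higher and 26.1% lower, and are no result about the list. The response to MC903 was more negative in skin labelled knockout for 7 of the 14 and more positive for 3. Over all genes tested these shares were 19.7% and 20.0%. Of the 5 ligands, Ccl8, Ccl11 and Ccl24 were higher in skin labelled knockout after MC903, by 1.37, 0.56 and 1.41, and the differences of Ccl22 and Ccl17, 0.25 and -0.67, did not pass.

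**Figure D5:**
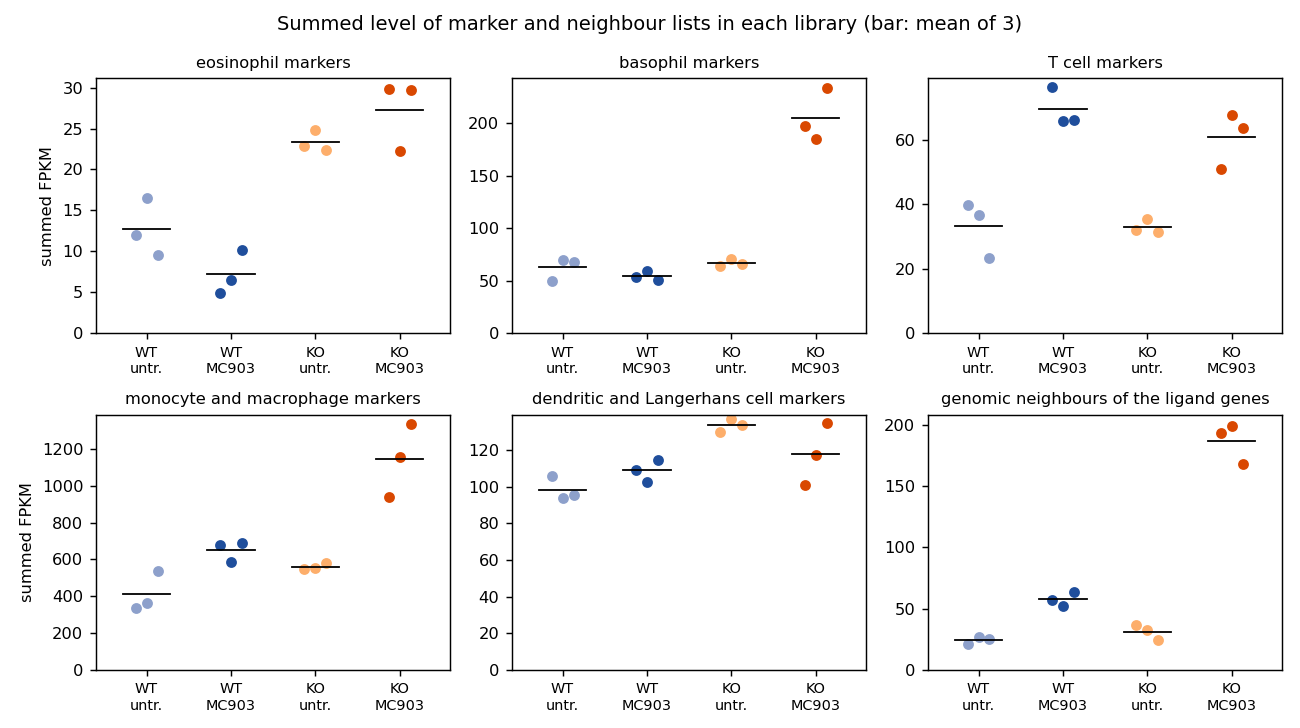
Summed FPKM (vertical axes) of marker lists of eosinophils, basophils, T cells, monocytes and macrophages, dendritic and Langerhans cells, and of the genomic neighbours of the ligand genes, in each skin library, with the mean of 3 per group (WT, wild type; KO, labelled knockout; untr., untreated). Basophil, macrophage and neighbour sums are highest in MC903 skin labelled knockout, at 186 to 234, 939 to 1334 and 168 to 199. The eosinophil sum comes mostly from listed genes other than Siglecf and Epx and is not read as a level of eosinophils.

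Markers of cells known to carry or make these proteins moved in the same libraries, and their part in the results was not tested. For Ccr3 these are eosinophils and basophils. Of 9 eosinophil markers other than Ccr3, 4 were tested, and their summed FPKM was 9.55 to 16.5 and 4.88 to 10.2 in untreated and MC903 wild type skin, and 22.4 to 24.8 and 22.2 to 29.9 in skin labelled knockout. Siglecf, an eosinophil surface lectin, had 0.054, 0.0711 and 0, then 0.0214, 0.198 and 0.0854, in wild type, and 0.348, 0.113 and 0.212, then 1.17, 1.25 and 1.32, in skin labelled knockout. The granule gene Epx was at 0 in every library but 1, which had a single read, and Prg2 had at most 8 reads. Siglecf, at most 1.32 FPKM in any library, and Epx therefore made up little of the eosinophil marker sums. These sums came mostly from other listed genes, and which cells expressed those genes was not tested. The sums are therefore not read as a level of eosinophils. Siglecf reached the filter only through the MC903 libraries labelled knockout, and 5 of the 9 markers were not tested, so no count of the tested ones is given. As the group where Siglecf was high admitted it to the test, its genotype difference after MC903 is described by these levels alone.

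Basophil markers were 6 genes, and Cpa3, Fcer1a and Gata2 of these are also mast cell genes. All 6 rose with MC903 in skin labelled knockout, where 25.0% of all genes tested rose. In wild type 3 rose and 1 fell, against 32.6% and 30.3% of all genes tested. Their summed FPKM was 50 to 69.4, then 50.4 to 58.7, in wild type and 64 to 70.8, then 186 to 234, in skin labelled knockout. Mcpt8, a basophil protease, was 0.0504, 0.0994 and 0.0524, then 11.1, 14 and 12.2, in wild type, and 0.0513, 0 and 0.215, then 60.8, 53.5 and 72.1, in skin labelled knockout. Mcpt8 was at most 0.215 FPKM in every untreated library, also in those labelled knockout, where Ccr3 was higher than in wild type. Of 13 mast cell markers 10 were higher in skin labelled knockout after MC903, against 25.9% of all genes tested. All 13 summed to 258 to 371 and 199 to 226 in wild type and to 328 to 337 and 453 to 524 in skin labelled knockout.

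For Ccr4 and Ccr8 the carriers are T cells. Of 18 T cell markers 16 were tested. The summed FPKM of all 18 was 23.2 to 39.8, then 65.8 to 76.5, in wild type and 31.4 to 35.6, then 51 to 67.7, in skin labelled knockout. In wild type 9 rose with MC903 and 5 fell, against 32.6% and 30.3% of all genes tested. In skin labelled knockout 9 rose, against 25.0%. Foxp3, the regulatory T cell factor, was 0.0504, 0.137 and 0.0786, then 0.54, 0.57 and 0.418, in wild type, and 0.462, 0.394 and 0.363, then 1.62, 2.43 and 1.61, in skin labelled knockout. It was higher in skin labelled knockout untreated (0.62 ± 0.16, adjusted p = 0.0305) and after MC903 (1.23 ± 0.16, adjusted p = 0.000102). No untreated library and not all wild type MC903 libraries reached an FPKM of 0.5, so Foxp3 passed the filter through MC903 libraries labelled knockout. Its genotype calls therefore add no support beyond the levels. Cd4 was 2.26, 1.51 and 1.38, then 1.01, 1.07 and 0.768, in wild type, and 3, 3.29 and 2.93, then 4.99, 6.12 and 8.95, in skin labelled knockout, and Cd3e was 1.49, 1.28 and 0.884, then 0.63, 0.467 and 0.496, in wild type, and 0.665, 1.16 and 0.855, then 0.635, 1.19 and 1.28, in skin labelled knockout. Cd3e was among the 5 that fell with MC903 in wild type, where 9 rose, by 0.72 (SE 0.21, adjusted p = 0.0103). After MC903 it was higher in skin labelled knockout by 0.55 ± 0.21 (adjusted p = 0.0447). Between the MC903 groups 8 of the 16 T cell markers were higher in skin labelled knockout, against 25.9% of all genes tested. The 1 that was lower, against 26.1% of all genes tested, was Trbc2, at -1.28 ± 0.23 (adjusted p = 0.000767).

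For Ccl8, Ccl24, Ccl17 and Ccl22 the known sources are myeloid. As a background for the counts that follow, 7.15% of all genes tested were higher in skin labelled knockout untreated and 25.9% after MC903. The shares that were lower were 4.55% and 26.1%. The 14 monocyte and macrophage markers summed to 335 to 538 and 586 to 689 in wild type and to 546 to 581 and 939 to 1334 in skin labelled knockout. Untreated, 4 of these 14 were higher in skin labelled knockout and none lower, and neither Ccl8 nor Ccl24 passed there. After MC903, 11 of them were higher in skin labelled knockout, led by Csf1r (1.74 ± 0.12, adjusted p = 2.45e-06), where Ccl8 and Ccl24 were also highest. The dendritic and Langerhans cell markers, 13 of 15 tested, summed to 93.7 to 106 and 103 to 115 in wild type and to 130 to 137 and 101 to 135 in skin labelled knockout. Untreated, 6 of the 13 were higher in skin labelled knockout, led by Ccr7 (1.13 ± 0.15, adjusted p = 0.00203), Mgl2 (0.66 ± 0.12, adjusted p = 0.00842), Cd207 (0.61 ± 0.13, adjusted p = 0.0132) and Irf4 (0.70 ± 0.16, adjusted p = 0.0184), where Ccl22 and Ccl17 were also highest. After MC903, 10 of the 13 were higher in skin labelled knockout and 2 lower, with a median of 0.58, and neither Ccl22 nor Ccl17 was called higher there. Fibroblasts are a known source of Ccl11. Untreated, 5 of 10 fibroblast markers were higher in skin labelled knockout, where the mean FPKM of Ccl11 was the lowest of the 4 groups. After MC903, 9 of the 10 markers were higher there, and none was lower in either comparison. Their sums were 1326 to 2357 and 678 to 798 in wild type and 4782 to 5465 and 1887 to 2430 in skin labelled knockout.

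The genes most like each member were those with the smallest root mean square difference of centred log2(FPKM + 0.5) over the 12 libraries, among 13596 named genes. This is a description with no test. Ccl8 was most like Siglec1 (0.263), Csf2rb (0.272) and Fcgr2b (0.287), and Siglec1 had a mean FPKM of 0.664, 2.38, 1.31 and 7.58 in untreated and MC903 wild type skin and in untreated and MC903 skin labelled knockout. Ccl24 was most like Gmfg (0.335), Pilrb1 (0.351) and Pf4 (0.361). Ccl11 was closest to Apod (0.176), whose mean FPKM in the same group order was 222, 156, 155 and 210, then to Cnr1 (0.189) and Eif4e3 (0.192).

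The CCR4 ligands had more distant nearest genes. Ccl17 was closest to Capn12 (0.372), Rasal1 (0.413) and Creb3l3 (0.419), and Ccl22 to Adamts17 (0.326), Agtr2 (0.329) and Clec12b (0.347). Of these, Adamts17 had means of 0.391, 0.4, 1.76 and 0.622, with the peak of Ccl22 in untreated skin labelled knockout. Among the receptors, Ccr3 was closest to Glipr2 (0.167), Themis2 (0.181) and Nrros (0.195), Ccr4 to Pof1b (0.225), Skint10 (0.245) and Dlg2 (0.283), and Ccr8 to Irf8 (0.186), Col18a1 (0.202) and Fkbp15 (0.216). A small difference is easier to reach for a gene whose log2 values vary little, so these values do not rank the members.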

How the data were processed

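Gene-level FPKM values of 12 skin libraries were used as deposited by the authors. Per the submitters' processing notes, reads were counted with featureCounts on mm10. For the aligner, annotation release, strand setting and FPKM tool, nothing was given in the sources used here. FPKM times gene length gave whole reads for 100% of the values within 0.01 of a read after 1 factor per library. The authors' FPKM denominators were 0.917 to 1.11 times the read totals, so the values were taken as scaled between libraries. Samples of dorsal root ganglion, 3 in number, were not used here.

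Models were fitted with limma 3.58.1 (R 4.3.3) to log2(FPKM + 0.5) of the 17646 genes with FPKM of at least 0.5 in at least 3 libraries. The 4 groups shared 1 spread per gene (8 residual degrees of freedom), moderated with a mean trend. Tests were two-sided, and adjustment followed Benjamini and Hochberg over all genes within each contrast, with a threshold of 0.05. All adjusted p-values come from limma, and errors of fold changes are SE. The procedure was tested on simulated data.

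The members and the 14 lists of other genes were chosen with earlier results of these data known. All members are given in each comparison. From each list up to 4 genes by adjusted p in the comparison described could be named, with Il4, Il5, Il13, Siglecf, Prg2, Epx, Cd3e, Cd4, Foxp3, Il33, Tslp and Trpv3. Library values of Ccl12 and Mcpt8 were added after they were seen. List medians and counts carry no set test. Alternatives were other pseudocounts, filters and scalings, robust moderation, library weights, voom on recovered reads, a replicate block, fits of only the groups compared and leaving out each library. Python 3.11.15, pandas 2.3.3, numpy 2.4.6 and matplotlib 3.10.9 were used.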

Additional observations from a re-analysis of the deposited data

Results flagged for a closer look

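The MC903 response differed between the genotypes by the test of the difference itself for 3 members. For Ccl11 the response was more positive in skin labelled knockout by 0.97 on the log2 scale, with all 3 MC903 libraries above all 3 untreated ones there and overlapping ranges in wild type. For Ccl17 the difference was -1.78, higher with MC903 in wild type and lower in skin labelled knockout. For Ccl22 it was -1.49, where the untreated skin labelled knockout held the highest libraries. These tests share untreated libraries labelled knockout with the untreated genotype comparison.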

How the results depend on the processing

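Under 23 alternatives the 40 member results gave 902 values. Of these 785 kept direction and side of the threshold, 63 lost a call, 33 gained one and 21 changed sign, and 13 of the 40 kept both throughout. With no filter on low values the members passing went from 2 to 1 in the wild type response, from 6 to 3 in the response of skin labelled knockout and from 5 to 3 in the MC903 genotype comparison, which a filter of FPKM of at least 1 also left at 3, testing 6 members. Library weights, which gave untreated wild type replicate 1 a weight of 4.61, gave 5 in the wild type response and 5 in the untreated comparison (main 3). TPM gave 5 for the difference of responses (main 3). Leaving out 1 library in turn gave 1 to 5, 4 to 7, 2 to 4, 3 to 5 and 3 to 4 members in the 5 comparisons. Of all genes, 2064 passed between the untreated groups, 6548 with library weights, 613 in a fit of only those groups, and 3562, 1149, 831, 752 and 1176 without wild type untreated replicate 3 or 2 or labelled knockout untreated replicate 1, 2 or 3. The cause was not tested.

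Signs that changed belonged to values with no call. In the wild type response Ccl24 was 0.13 with library weights and -0.51 to 0.23 when libraries were left out, Ccl22 was -0.092 with TPM, and Ccr4 was -0.21 with TPM, -0.41 with library weights and -0.0735 to 0.52 when libraries were left out. Between the MC903 groups Ccr4 was -0.0072 with a pseudocount of 0.1, -0.016 with voom and -0.23 to 0.20 when libraries were left out. For the difference of responses Ccr4 was 0.0088 with library weights, Ccr3 was -0.092 with a pseudocount of 0.1 and -2.21 with voom, and Ccr8 was -0.21 with a pseudocount of 0.1, -0.26 with library weights, -0.50 with voom and -0.15 to 0.27 when libraries were left out.

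Replicate numbers did not pair the libraries: over 18 pairs the correlation of deviations was -0.130 to 0.169, above 0.1 in 3 pairs, and 4 of 12 libraries correlated best with their own number. With the replicate block the difference of responses had 5 members (main 3), with Ccl8 (adjusted p = 0.046) and Ccl24 (adjusted p = 0.031) added, and the other counts stayed within 1.5 times. Depth limits Ccr3, Ccr8 and Ccl17 most, at 0 to 120, 1 to 24 and 13 to 66 reads per library.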
